A study of Homo sapiens with 75 samples.

Results

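The genes of the endoplasmic reticulum (ER) stress and amino acid responses were followed in mantle cell lymphoma cells treated with antibodies to CD20. They were 40 genes, 25 of the ATF4 arm and 15 of the ER arm, and the members were every probe set of the array annotated to 1 of these symbols alone. This gave 85 probe sets of 40 genes, out of 41091 probe sets with a single symbol that stood for 19775 genes. A gene was tested if its mean log2 intensity in at least 1 line was above 3.548, an intensity of 11.69. Of the 40, 39 passed and were tested among 13879 genes, and NUPR1 did not.

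The arrays came from 5 established human lines of mantle cell lymphoma (REC-1, JEKO-1, HBL-2, Z138 and GRANTA-519), all grown in RPMI medium with fetal bovine serum. Each line received PBS (PBS-control), an isotype control antibody (Isotype-control), GA101, rituximab, or GA101 with rituximab, on 3 arrays each, which makes 25 groups and 75 arrays. GA101 is obinutuzumab, and both therapeutic antibodies bind CD20 on B cells; each was given at 10 µg/ml, also in the combination. The sources used here do not give the isotype dose or the length of treatment. Nothing says that replicates were separate cultures, so p-values measure the spread between these arrays, which may be technical. Fewer cells of a kind and less RNA per cell cannot be told apart in bulk RNA.

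ER stress is sensed by 3 membrane proteins, IRE1 (encoded by ERN1), ATF6 and PERK (EIF2AK3). IRE1 splices XBP1 mRNA, and XBP1 and cleaved ATF6 induce chaperones and the machinery of ER-associated degradation. PERK, like the amino acid sensor GCN2, phosphorylates the translation factor eIF2α, which favours translation of ATF4. ATF4 then induces amino acid transporters, amino acid and one-carbon enzymes, tRNA synthetases and, in prolonged stress, DDIT3 (CHOP). ATF4 is controlled largely in translation and XBP1 by splicing, and neither step is read by a 3′ array. B lymphocytes use the same XBP1 arm when they become antibody-secreting plasma cells.

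Every array had a mean intensity of 172, the common scale of the deposited values, with medians of 11.06 to 17.42 and 4.08% to 8.87% of probe sets at 0. Across probe sets, r between replicates was 0.9243 to 0.9477, and no 2 arrays were identical. B cell markers were present on every array, with MS4A1, which encodes CD20, at 4058 to 6573. The summed level of 4 B cell markers was 6474 to 13140 on isotype arrays and 6610 to 13100 on GA101 arrays, ranges that span all 5 lines. Over the lines, CD79B was called higher against isotype with GA101 (0.15), rituximab (0.14) and the combination (0.12), and MS4A1 with the last 2 of these (0.073 and 0.071). CD79B was lower with isotype than with PBS (-0.185), and against PBS 0 of the 4 were called with any treatment. The summed level of 5 T cell markers was 21.98 to 137.6 on isotype arrays and 22.64 to 140.3 on GA101 arrays, and the myeloid marker CD14 had a median of 0.

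The upstream regions of the members are shown for the elements that define the 2 arms. RefSeq start sites on GRCh38.p14 gave 35116 regions of 250 bases before a start, and 36 of the 40 members had an entry. Both strands were searched for 3 motifs: the ER stress response element, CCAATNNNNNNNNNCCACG; the core of the C/EBP-ATF response element that ATF4 binds, TGATGNAA; and the unfolded protein response element, TGACGTGG. No 2 matches in a member overlapped. A match here needs every fixed letter of the motif, and it is a description of letters and not a bound site.

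The ER stress response element was found upstream of 5 of 36 members, CALR, HSP90B1 (2 matches), HSPA5, PDIA6 and XBP1, against 0.074% of the 35116 regions and 25 of 27305 genes. All 5 belong to the ER arm. The matches are printed on the strand that reads as the motif, with its letters in capitals.
CALR, chr19:12938379-12938407, minus strand: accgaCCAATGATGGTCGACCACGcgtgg
HSP90B1, chr12:103930211-103930239, plus strand: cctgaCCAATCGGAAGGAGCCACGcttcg
HSP90B1, chr12:103930316-103930344, minus strand: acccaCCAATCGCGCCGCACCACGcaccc
HSPA5, chr9:125241386-125241414, minus strand: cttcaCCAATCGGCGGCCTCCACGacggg
PDIA6, chr2:10812848-10812876, minus strand: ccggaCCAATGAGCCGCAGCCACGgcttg
XBP1, chr22:28800598-28800626, minus strand: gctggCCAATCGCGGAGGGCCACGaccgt

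The C/EBP-ATF core was found upstream of 5 of 36 members, ASNS, CEBPG, CHAC1, HERPUD1 and SLC1A5, against 3.14% of regions and 1061 of 27305 genes. The first 3 and SLC1A5 are of the ATF4 arm, and HERPUD1 is an ER-associated degradation gene.
ASNS, chr7:97872458-97872487, minus strand: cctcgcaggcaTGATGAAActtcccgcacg
CEBPG, chr19:33374060-33374089, plus strand: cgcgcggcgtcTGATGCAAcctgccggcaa
CHAC1, chr15:40953251-40953280, minus strand: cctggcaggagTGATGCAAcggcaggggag
HERPUD1, chr16:56931955-56931984, minus strand: tgggcacgggcTGATGCAAcccgccgcgtc
SLC1A5, chr19:46784893-46784922, minus strand: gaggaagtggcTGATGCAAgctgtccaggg

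The unfolded protein response element, present in 0.612% of regions, had 0 matches among the 36 members. The whole 250 bases are shown for HSPA5 and ASNS, the reference genes of the 2 arms, and for DDIT3, whose change over the lines was the largest among the members that passed with either single antibody against isotype. Capitals mark the matches. DDIT3 had no exact match to the 3 motifs in this window. It does hold CCAAT, 9 bases and then CCACT, which departs from the ER stress response element in the last letter alone. Near matches were not counted, and the window says nothing of what lies outside it or of what binds there.
HSPA5, chr9:125241344-125241593, minus strand: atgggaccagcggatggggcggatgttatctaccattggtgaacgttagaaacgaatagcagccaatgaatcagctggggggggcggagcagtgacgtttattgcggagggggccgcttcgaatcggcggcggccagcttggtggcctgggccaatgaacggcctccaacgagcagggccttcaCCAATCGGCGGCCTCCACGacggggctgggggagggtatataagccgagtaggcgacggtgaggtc
ASNS, chr7:97872409-97872658, minus strand: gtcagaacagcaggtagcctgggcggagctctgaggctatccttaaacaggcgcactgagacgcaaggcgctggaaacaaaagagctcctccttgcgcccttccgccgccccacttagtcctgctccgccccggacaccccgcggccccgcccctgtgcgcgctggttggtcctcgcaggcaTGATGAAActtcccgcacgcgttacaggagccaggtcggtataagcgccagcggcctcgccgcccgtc
DDIT3, chr12:57520515-57520764, minus strand: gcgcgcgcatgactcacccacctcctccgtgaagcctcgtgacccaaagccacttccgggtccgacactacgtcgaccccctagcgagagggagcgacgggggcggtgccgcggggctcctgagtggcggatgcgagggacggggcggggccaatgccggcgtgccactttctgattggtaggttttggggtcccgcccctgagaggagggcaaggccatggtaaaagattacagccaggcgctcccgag

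Without CD20 antibody the 5 lines already differed in the level of these genes. An F test in limma, with Benjamini-Hochberg adjustment over all genes as in every test below, called the control level of 39 of 39 members different between the lines; 86.8% of all genes were called, so this is close to the array as a whole. Control levels are means over the 6 PBS and isotype arrays of a line. PSAT1, which makes phosphoserine for serine synthesis, was at 1427 in HBL-2 and 1.178 in GRANTA-519, and the latter was below the filter on every array. PSPH, the last enzyme of that pathway, was 1175 in Z138 and 73.83 in REC-1, 16 times lower, and the 6 arrays of each line overlapped with no other line. PHGDH, the first enzyme, ranged from 540.3 in Z138 to 37.45 in GRANTA-519, again with no overlap between any neighbours in the order. ASNS (asparagine synthetase) ran from 1588 in Z138 through GRANTA-519, HBL-2 and JEKO-1 to 315 in REC-1, a 5.04-fold range. ATF5 was 2253 in Z138 and 224 in JEKO-1. VLDLR, a lipoprotein receptor, was 212 in Z138 and 6.56 to 9.54 in the other lines, below the filter intensity of 11.69. ALDH1L2 was 49.48 in HBL-2 and 0.635 in Z138. The filter asked for 1 line only, so the wide range of such members is in part set by the filter and the floor of 1.

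The 9 chaperones and folding enzymes had ranges of 1.25-fold to 2.94-fold between the highest and the lowest line. HSPA5 (BiP, the main ER chaperone) was 5040 in HBL-2 and 3048 in GRANTA-519, a 1.65-fold range, and PDIA6, a disulfide isomerase, had a 1.25-fold range with no neighbours separated. The median range over the 39 members was 2.94-fold, and 14 members exceeded 4-fold. Among these lines Z138 was the highest for 15 members and REC-1 the lowest for 13. These 13 were ASNS, CEBPB, DNAJC3, EDEM1, HERPUD1, MTHFD2, PCK2, PDIA4, PSPH, SLC3A2, SLC7A1, SLC7A5 and WARS1. XBP1 was 1151 in GRANTA-519 and 347 in JEKO-1, and ERN1 was 408 in Z138 and 57.76 in HBL-2.

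**Figure D1:**
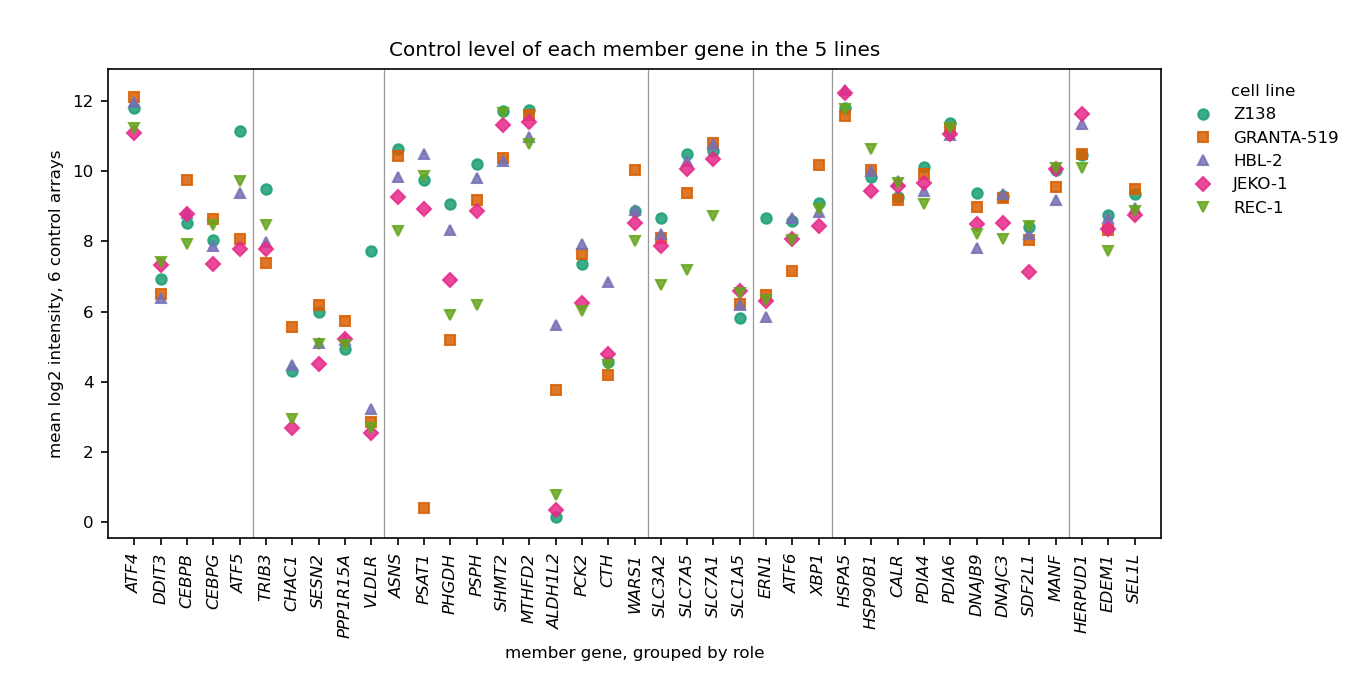
Mean log2 intensity of each tested member (x axis, grouped by role) over the 6 control arrays of each line (y axis); symbols are the 5 lines. The spread between lines is widest for PSAT1, ALDH1L2 and VLDLR and narrowest for PDIA6. The widest ranges reach lines below the filter intensity of 11.69, and for PSAT1 and ALDH1L2 they reach down to the floor of 1. Levels of different genes come from different probe sets and are not comparable with each other.

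Over the 5 lines, each antibody moved a minority of the members and by small amounts. GA101 against isotype raised 9 of 39 members (DDIT3, CEBPB, ASNS, PCK2, WARS1, SLC3A2, ATF6, PDIA4 and MANF) and lowered 1, DNAJB9; of all genes 12.5% were higher and 5.77% lower. Rituximab raised 5 (DDIT3, ASNS, WARS1, PDIA4, MANF) and lowered 6 (CEBPG, TRIB3, MTHFD2, SLC7A1, HSPA5, DNAJB9), against 13.8% and 6.9% of all genes. The combination raised the same 5 as rituximab and lowered 5 (TRIB3, SHMT2, MTHFD2, SLC7A1, DNAJB9), against 11.4% and 6.01%. The median log2 change of the members was 0.040 for GA101, 0.030 for rituximab and 0.044 for the combination, and that of all genes was 0.024, 0.017 and 0.020. The 3 comparisons share the same isotype arrays.

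Measured against PBS, which shares the antibody arrays with these comparisons, GA101 raised 8 members and lowered 2, beside 7.26% and 3.31% of all genes. Rituximab raised 5 and lowered 6, beside 8.26% and 3.85%, and the combination raised 6 and lowered 3, beside 5.69% and 2.84%. Isotype against PBS raised 1 member, TRIB3 (0.15 ± 0.037, SE, on the log2 scale; adjusted p = 0.0039), and lowered 1, ATF4 (-0.10 ± 0.028; adjusted p = 0.013, lower in 5 of 5 lines); 2.16% of all genes were higher and 4.29% lower. Quantile normalization changed the split of all genes called: 1240 higher and 1081 lower for GA101 against isotype in place of 1728 and 801, 1554 and 1232 for rituximab in place of 1910 and 957, and 1266 and 1054 for the combination in place of 1576 and 834. Against PBS the splits became 581 and 720 in place of 1007 and 459, 813 and 791 in place of 1146 and 535, and 591 and 577 in place of 790 and 394, in the same order of antibodies. Under it the members called against isotype were 7 higher and 1 lower for GA101, 4 and 9 for rituximab, and 5 and 6 for the combination.

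**Figure D2:**
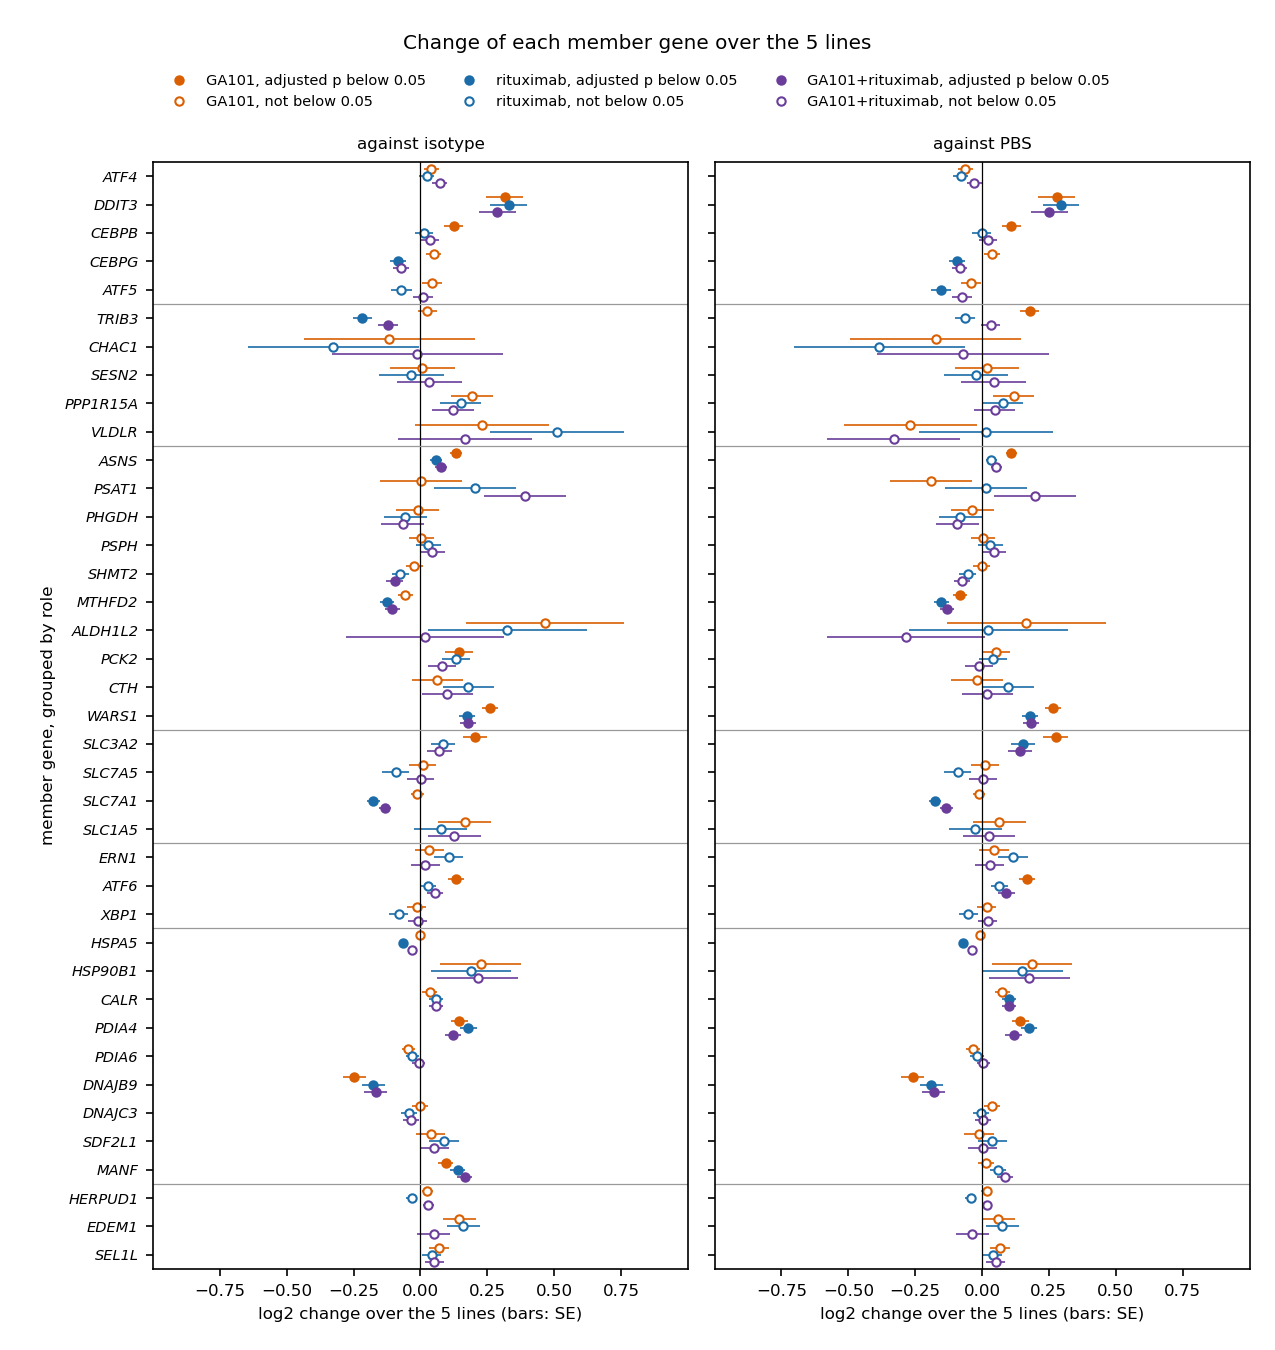
Log2 change of each member over the 5 lines (x axis; bars are SE) for GA101, rituximab and their combination, against isotype on the left and against PBS on the right; filled points have an adjusted p below 0.05. DDIT3, WARS1 and PDIA4 lie to the right and DNAJB9 to the left for every antibody against both controls, and SLC7A1 and MTHFD2 lie further left with rituximab than with GA101.

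Of the transcription factors, DDIT3 rose with all 3 treatments and ATF4 passed in none of them. DDIT3 encodes CHOP, a factor tied to cell death in prolonged ER stress. Its log2 change over the lines was 0.315 ± 0.069 for GA101 (1.24-fold; adjusted p = 0.00045, higher in 5 of 5 lines), 0.33 ± 0.069 for rituximab (adjusted p = 0.00018, 4 of 5 lines) and 0.29 ± 0.069 for the combination (adjusted p = 0.0014, 4 of 5 lines). Against PBS the values were 0.28, 0.295 and 0.25, with adjusted p of 0.0039, 0.0016 and 0.012 and the same direction in 4, 2 and 2 of 5 lines, and no single array ended any of the 6 calls.

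The lines contributed unequally to DDIT3. In HBL-2 it was 101, 85.29 and 92.48 on the isotype arrays and 60.71, 101 and 67.62 on the PBS arrays. With rituximab it was 227, 205 and 175, and with the combination 212, 181 and 164, all above every control array, while GA101 gave 123, 126 and 98.34. The rituximab change in HBL-2 was 1.12 ± 0.15 against isotype (2.17-fold; adjusted p = 1.4e-07) and 1.43 against PBS (adjusted p = 1.6e-10), and GA101 against rituximab gave -0.81 (adjusted p = 0.00056). In JEKO-1 the isotype arrays read 199.6, 151 and 155, and the rituximab arrays 234, 221 and 226, all above them. Against isotype the change of 0.44 missed the threshold (adjusted p = 0.07), and it was 0.58 against PBS (adjusted p = 0.016), where GA101 (0.51) and the combination (0.54) passed too.

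Z138 and REC-1 showed little of this. In Z138, DDIT3 was 94, 118 and 137 with isotype and 109, 94.86 and 83.80 with rituximab, and the arrays overlapped. GRANTA-519 had a call with GA101 only against isotype, where 73.70, 99.67 and 72.91 became 131, 131 and 109.5 (0.60 ± 0.15; adjusted p = 0.016). That call ended when GA101 replicate 1 (adjusted p = 0.089) or 2 (0.073), or isotype replicate 1 (0.087) or 3 (0.10), was left out, under quantile normalization (0.49; adjusted p = 0.14) and against PBS (0.28; adjusted p = 0.56). The rituximab response of DDIT3 differed between the lines (F test, adjusted p = 4.1e-05).

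ATF4 was 2197 to 4436 in control cells of the 5 lines, and its change over the lines was 0.040 ± 0.028 for GA101 and 0.023 ± 0.028 for rituximab (adjusted p = 0.38 and 0.66). With the combination it was 0.073 (adjusted p = 0.064), and in JEKO-1 it passed there (0.20; adjusted p = 0.036), with isotype arrays at 2184, 2175 and 1730.5 and combination arrays at 2335, 2421 and 2226. Without isotype replicate 3 that value was 0.094 (adjusted p = 0.57), without combination replicate 1 or 2 the adjusted p was 0.097 or 0.16, and against PBS, at 2496, 2419.7 and 2174, it was -0.021.

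CEBPB and CEBPG encode C/EBP factors that pair with ATF4. CEBPB rose over the lines with GA101 (0.12 ± 0.034; adjusted p = 0.0059), in 4 of 5 lines, and not with rituximab (0.012; adjusted p = 0.87). CEBPG fell with rituximab (-0.083 ± 0.029; adjusted p = 0.032, lost in 9 of the 75 fits that each left out 1 array) and was higher with GA101 than with rituximab in 5 of 5 lines (0.13 ± 0.029; adjusted p = 0.0039). Its second probe set also fell with rituximab (-0.13). ATF5, an ATF4 target that is itself translated under stress, changed in HBL-2 with rituximab, from 690.2, 664 and 650.4 to 481, 464 and 469 (-0.50 ± 0.086; adjusted p = 1.4e-05), with all treated arrays below all control arrays. The mean over its probe sets, 2 of which are dimmer, gave -0.26 with an adjusted p of 0.74. In JEKO-1 its call with GA101 (0.33) rested on isotype replicate 3, at 143 beside 254 and 204; without that array it was 0.11 (adjusted p = 0.54), and against PBS it was -0.006. NUPR1, a small stress-induced chromatin protein, had a mean of 11.57 and a range of 0.98 to 26.12 over the 75 arrays and was not tested.

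The feedback and stress effectors gave 1 main result, TRIB3, a pseudokinase that ATF4 and CHOP induce and that restrains them. Over the lines TRIB3 fell with rituximab (-0.22 ± 0.037; adjusted p = 4.7e-06, 4 of 5 lines) and with the combination (-0.12; adjusted p = 0.014). It did not pass with GA101 (0.026; adjusted p = 0.72), and GA101 was above rituximab by 0.24 ± 0.037 (adjusted p = 6e-06, 5 of 5 lines). Against PBS the values were 0.18 for GA101 (adjusted p = 0.00048), -0.064 for rituximab (adjusted p = 0.29) and 0.032 for the combination, beside the rise of TRIB3 in isotype over PBS given above. The mean over both probe sets, of which the second had a mean of 34.12, ended the rituximab call (-0.19; adjusted p = 0.12), the combination call (-0.056; adjusted p = 0.76) and the difference between antibodies (0.23; adjusted p = 0.22).

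In Z138, TRIB3 read 791, 784 and 739.8 with isotype, 713, 759.7 and 756 with GA101 and 678, 606 and 542 with rituximab. The rituximab arrays were below all others of these 3 groups, while 2 of the PBS arrays, at 669, 724 and 645, lay below the highest of them. In HBL-2 the isotype arrays were 280.2, 277 and 242.5, the GA101 arrays 217, 217 and 207, and the rituximab arrays 201, 188 and 178. Rituximab changed it by -0.49 ± 0.082 (adjusted p = 7.1e-06; against PBS -0.32, adjusted p = 0.0057). In REC-1 the direction with GA101 was the opposite: 398, 356 and 325 with isotype and 488.5, 426 and 422 with GA101 (0.31 ± 0.082; adjusted p = 0.0061; against PBS 0.375, adjusted p = 0.00092). The REC-1 call against isotype ended without GA101 replicate 1 (adjusted p = 0.083) or isotype replicate 3 (0.077), and the HBL-2 call with GA101 (-0.32) without isotype replicate 1 (0.066) or 2 (0.054).

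The other 4 effectors passed in no comparison over the lines. PPP1R15A (GADD34, which guides a phosphatase to eIF2α) passed only in Z138 with GA101, where isotype arrays of 29.98, 27.24 and 32.25 stood below GA101 arrays of 47.25, 46.94 and 37.06 (0.55 ± 0.17; adjusted p = 0.029). That call ended without GA101 replicate 1 (0.13) or 2 (0.12) or isotype replicate 1 (0.063) or 2 (0.12), and the value against PBS was 0.49 (adjusted p = 0.11). CHAC1, which degrades glutathione and is among the most inducible ATF4 targets, was dim. Its highest levels were in GRANTA-519, with 58.18, 40.06 and 36.96 for isotype and 93.66, 67.31 and 75.10 for GA101, but in JEKO-1 single arrays of 1 group ran from 2.06 to 20.41, and its SE over the lines was 0.32. SESN2, a stress-induced regulator of mTORC1, and VLDLR had SE over the lines of 0.12 and 0.25.

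Among the enzymes, WARS1 and ASNS rose and MTHFD2 fell. WARS1, the cytoplasmic tryptophanyl-tRNA synthetase, rose with GA101 (0.26 ± 0.030; adjusted p = 8.3e-10), rituximab (0.17; adjusted p = 7e-06) and the combination (0.18; adjusted p = 6.7e-06), each in 4 of 5 lines, and by 0.27, 0.18 and 0.18 against PBS. The largest of these was in Z138, where the isotype arrays were 455, 462 and 425, the GA101 arrays 699.7, 675 and 642 and the rituximab arrays 683, 636 and 582. No treated array overlapped with an isotype array, and the changes were 0.59 ± 0.067 (adjusted p = 2.1e-09) and 0.50 ± 0.067 (adjusted p = 1.1e-07). REC-1 went from 269, 259.9 and 238 to 363, 358 and 327 with GA101 (0.45; adjusted p = 1.4e-06).

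HBL-2 was the exception for WARS1. There the isotype arrays were 503, 499 and 477 and the rituximab arrays 413, 447 and 408, a change of -0.22 (adjusted p = 0.021) that ended without rituximab replicate 1 (0.088) or 3 (0.10) or isotype replicate 1 (0.087) or 2 (0.073). The PBS arrays of HBL-2, at 449.6, 459 and 449, lay between, and against them the change was -0.10 (adjusted p = 0.52). The response differed between the lines for GA101 (adjusted p = 2.5e-08) and rituximab (1.8e-06). The second WARS1 probe set had the same sign in both (0.14 and 0.083).

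ASNS rose over the lines with GA101 by 0.13 ± 0.021 (adjusted p = 2.6e-06; against PBS 0.11, adjusted p = 0.00023). With rituximab it was 0.058 (adjusted p = 0.045), which was lost in 20 of the 75 fits that left out 1 array and under quantile normalization (0.043; adjusted p = 0.17). In REC-1, where its control level was lowest, isotype arrays of 306, 329 and 315 became 425, 400.4 and 364 with GA101, without overlap (0.32 ± 0.048; adjusted p = 1.4e-06). In Z138 they went from 1576, 1539 and 1482 to 1760.3, 1752 and 1729 (0.19; adjusted p = 0.0045), but the PBS arrays were 1693, 1646 and 1589.6 and the change against them was 0.089 (adjusted p = 0.40). HBL-2 moved the other way with rituximab, from 920.2, 912 and 922 to 885, 814 and 785 (-0.15; adjusted p = 0.031), a call that ended without any 1 of 5 of its 6 arrays (adjusted p up to 0.22).

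MTHFD2, the mitochondrial folate enzyme, fell with rituximab (-0.125 ± 0.0275; adjusted p = 0.00035) and the combination (-0.105; adjusted p = 0.0036), and by -0.15 and -0.13 against PBS. In HBL-2 the isotype arrays were 1985, 1955 and 1921, the GA101 arrays 1692, 1627 and 1669.7, and the rituximab arrays 1689.7, 1564 and 1496. Every treated array was below every isotype and PBS array, and the rituximab change was -0.30 ± 0.062 (adjusted p = 0.00023; against PBS -0.38, adjusted p = 7.6e-06). Z138 fell too, from 3418, 3623 and 3153 to 2885, 3036 and 2792 with rituximab (-0.225; adjusted p = 0.008), a call that ended without rituximab replicate 3 (0.052) or isotype replicate 2 (0.089). In GRANTA-519, JEKO-1 and REC-1 neither single antibody passed. The mean over the MTHFD2 probe sets ended the combination call against isotype (-0.12, adjusted p = 0.053) and against PBS (-0.125, adjusted p = 0.08). It also ended the calls in Z138 with rituximab (-0.155, adjusted p = 0.44) and in HBL-2 with GA101 (-0.20, adjusted p = 0.36). The rituximab calls over the lines and in HBL-2 did not end.

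The other 7 enzymes gave little. PCK2, the mitochondrial phosphoenolpyruvate carboxykinase, passed with GA101 (0.145 ± 0.053; adjusted p = 0.045), but that call was lost in 19 of the 75 fits without 1 array and under quantile normalization (adjusted p = 0.14), and against PBS it was 0.053 (adjusted p = 0.63). In Z138 it passed with rituximab against isotype (0.35), lost without any 1 of its 6 arrays, and was -0.056 against PBS, with isotype itself below PBS (-0.41; adjusted p = 0.047). SHMT2, the mitochondrial serine hydroxymethyltransferase, passed over the lines only with the combination (-0.096; adjusted p = 0.022), lost in 4 such fits: without Z138 isotype replicate 3 (0.054), GRANTA-519 combination replicate 1 (0.053), GRANTA-519 isotype replicate 1 (0.061) or HBL-2 combination replicate 1 (0.056). PHGDH, PSPH, PSAT1, CTH and ALDH1L2 passed in no comparison over the lines. CTH, which makes cysteine from cystathionine, had calls in opposite directions with rituximab in GRANTA-519 (17.45, 17.59 and 16.98 to 28.66, 28.11 and 29.85; 0.735, adjusted p = 0.032) and HBL-2 (116, 116 and 122 to 84.94, 70.08 and 71.54; -0.65, adjusted p = 0.04). The first ended without any 1 of its 6 arrays (adjusted p up to 0.092), and the second without any 1 of 5 of its 6 (up to 0.14). PSAT1 also had calls in GRANTA-519, but its intensities there were 0 to 8.05, below the filter, and with a floor of 16 the changes were 0.

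Of the 4 transporters, SLC7A1 fell with rituximab and SLC3A2 rose with GA101 against isotype, and only SLC7A1 differed between the antibodies over the lines. SLC7A1, the cationic amino acid transporter CAT-1, fell over the lines with rituximab (-0.18 ± 0.023; adjusted p = 1.7e-08) and the combination (-0.13; adjusted p = 1.3e-05), by -0.18 and -0.13 against PBS as well. With GA101 it was -0.011 (adjusted p = 0.83), and GA101 exceeded rituximab by 0.17 ± 0.023 (adjusted p = 1.4e-06) in 5 of 5 lines. These values are those of its bright probe set; its other 3 had means of 12.71 to 68.75, and the mean over all 4 gave -0.14 (adjusted p = 0.39) for rituximab and 0.12 (adjusted p = 0.82) for the difference between antibodies.

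SLC7A1 changed in opposite directions with GA101 in different lines. In Z138 the isotype arrays were 1479.8, 1448 and 1645, the GA101 arrays 1311, 1233 and 1314 and the rituximab arrays 1148, 1102 and 1101, in 3 steps with no overlap. In HBL-2 they were 1734, 1834 and 1753, then 1421, 1506 and 1456, then 1279, 1279.7 and 1236, in the same order. In REC-1 the isotype arrays were the lowest, while GA101 again lay above rituximab. The arrays there read 448, 383 and 374 with isotype, 485, 478 and 491 with rituximab, and 591, 644 and 601 with GA101. GA101 against isotype was -0.24 ± 0.052 in Z138 (adjusted p = 0.00065), -0.28 in HBL-2 (adjusted p = 0.00014) and 0.61 in REC-1 (1.53-fold; adjusted p = 2e-13), and against PBS -0.22, -0.21 and 0.46. In GRANTA-519, the line with the highest level, the isotype arrays were 1704, 1774 and 1845 and the GA101 arrays 1767, 1771 and 1790. The F test for the GA101 response gave an adjusted p of 1.3e-14. These values too are those of the bright probe set. The mean over all its probe sets ended the GA101 calls against isotype in Z138 (-0.21, adjusted p = 0.74), HBL-2 (-0.30, adjusted p = 0.65) and REC-1 (0.36, adjusted p = 0.41).

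SLC3A2 encodes 4F2hc, the heavy chain that carries SLC7A5 and other light chains to the membrane. It rose with GA101 (0.205 ± 0.046; adjusted p = 0.00056; against PBS 0.275, adjusted p = 2e-05), with a positive change against isotype in 3 of 5 lines. REC-1 was highest in change, from 132, 115 and 95.13 with isotype to 180.5, 189.8 and 175 with GA101, beside 134, 129 and 149 with rituximab and 131, 121 and 132 with the combination. The GA101 arrays lay above all others of the line, at 0.68 ± 0.10 over isotype (1.60-fold; adjusted p = 1.4e-06), 0.82 over PBS (adjusted p = 1.7e-08) and 0.41 over rituximab (adjusted p = 0.013). The last of these ended without GA101 replicate 2 (0.083) or rituximab replicate 1 (0.062) or 2 (0.081). Rituximab passed against PBS (0.15) and not against isotype (0.084; adjusted p = 0.22), and the combination passed against PBS (0.14) with the call lost in 15 of the 75 fits without 1 array. SLC7A5 (LAT1) and SLC1A5 (ASCT2) passed in no comparison over the lines and in no line.

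Of the ER sensors, ATF6 rose slightly with GA101 and ERN1 and XBP1 did not pass over the lines. ATF6 was higher with GA101 in 5 of 5 lines, by 0.13 ± 0.031 (adjusted p = 0.00091), and by 0.17 against PBS (adjusted p = 9e-05). Its other 3 probe sets gave 0.15, 0.13 and -0.001, and the mean over all 4 was 0.10 (adjusted p = 0.29). ERN1 passed in HBL-2 with rituximab, from 60.96, 42.16 and 59.60 to 74.83, 68.05 and 85.64 (0.50 ± 0.12; adjusted p = 0.0029). Without isotype replicate 2, the lowest array, it was 0.33 (adjusted p = 0.11), and against PBS 0.31 (adjusted p = 0.13). XBP1 was -0.014 ± 0.035 with GA101 and -0.081 with rituximab (adjusted p = 0.87 and 0.1); in JEKO-1 with GA101 it passed against PBS (0.26) and not against isotype (0.11).

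Of the 9 chaperones and folding enzymes, PDIA4 and MANF rose and DNAJB9 fell with each treatment against isotype. DNAJB9 (ERdj4), a BiP co-chaperone and well-known XBP1 target, changed by -0.25 ± 0.043 with GA101 (adjusted p = 1.3e-05, lower in 5 of 5 lines), -0.18 with rituximab (adjusted p = 0.0013) and -0.17 with the combination (adjusted p = 0.0029), and by -0.26, -0.19 and -0.18 against PBS. Its other 2 probe sets gave -0.24 and -0.46 with GA101 and -0.23 and -0.33 with rituximab. In Z138 the isotype arrays read 653, 669 and 719 and the rituximab arrays 498, 551 and 495, without overlap (-0.40 ± 0.097; adjusted p = 0.0021). In REC-1 the isotype arrays were 318, 330.2 and 242 and the GA101 arrays 198, 218 and 245. These overlapped by 1 array, while the PBS arrays, at 290.1, 331 and 284, were all above the GA101 arrays (-0.42 against isotype, adjusted p = 0.0015; -0.45 against PBS, adjusted p = 0.00068).

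PDIA4, a disulfide isomerase of the ER, rose with GA101 (0.15 ± 0.031; adjusted p = 0.00024), rituximab (0.18; adjusted p = 6.6e-06) and the combination (0.12; adjusted p = 0.0025), and by 0.14, 0.17 and 0.12 against PBS. Its second probe set gave 0.22 and 0.34 for the single antibodies. In JEKO-1 isotype arrays of 844, 757 and 804 became 954, 1027 and 965 with GA101 and 1078, 921 and 1013 with rituximab. Neither treated group overlapped with isotype (0.29, adjusted p = 0.0027; 0.32, adjusted p = 0.00077). MANF, a secreted ER stress protein, rose by 0.094 to 0.17 against isotype (adjusted p from 0.016 to 1.4e-05), but against PBS the values of 0.015, 0.060 and 0.086 missed the threshold (adjusted p = 0.83, 0.20 and 0.053). The GA101 call against isotype also ended under quantile normalization (0.063; adjusted p = 0.14).

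HSPA5 moved little and not alike in all lines. Over the lines it was -0.001 ± 0.015 with GA101 (adjusted p = 0.99) and -0.065 with rituximab (adjusted p = 0.00042), so that GA101 was above rituximab by 0.065 (adjusted p = 0.0047). In REC-1, isotype arrays of 3527, 3481 and 3377 and PBS arrays of 3612, 3488 and 3464 stood below GA101 arrays of 4000.2, 3805 and 4054, and the rituximab arrays were 3426, 3555 and 3395. The GA101 change there was 0.19 ± 0.033 (1.14-fold; adjusted p = 1.9e-05). In Z138 HSPA5 fell with rituximab, from 3736, 3676 and 3517 to 3224, 3216 and 3086 (-0.20; adjusted p = 7.7e-06; against PBS -0.14, adjusted p = 0.0064). The second HSPA5 probe set, with a mean of 211, gave -0.10 for GA101 and -0.22 for rituximab over the lines, and the mean of both gave 0.062 (adjusted p = 0.68) for GA101 in REC-1.

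SDF2L1, a cofactor of BiP-assisted folding, passed only in JEKO-1 with GA101, from 130, 122 and 163 to 192, 213 and 187 (0.52 ± 0.12; adjusted p = 0.003; against PBS 0.46, adjusted p = 0.017). CALR (calreticulin) passed in HBL-2 with rituximab, from 860, 826 and 861 to 1045, 946 and 954 (0.21; adjusted p = 0.016), which ended without rituximab replicate 1 (0.15) or isotype replicate 2 (0.081). Over the lines it passed against PBS with rituximab and the combination (0.10 in both). HSP90B1 (GRP94) and PDIA6 passed in no line and in no comparison over the lines, though the F test called the rituximab response of PDIA6 different between lines (adjusted p = 0.024). The SE within a line was 0.338 for HSP90B1 and 0.0565 for PDIA6, so only a large change of HSP90B1 could have passed. Its arrays differed by replicate number, with replicate 3 the highest isotype array in every line. DNAJC3 passed in Z138 with rituximab only (-0.22; adjusted p = 0.02), which ended without rituximab replicate 1 (0.11) or isotype replicate 1 (0.12) or 2 (0.052).

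The response of HERPUD1 differed between the lines for both antibodies (F test; GA101, adjusted p = 1.2e-15, the smallest of the members; rituximab, 1.7e-10). It encodes Herp, a membrane protein of the ER-associated degradation complex. In REC-1 it was 1129.5, 1125 and 1042 with isotype, 1140.1, 1093 and 1057 with PBS, 1483, 1477 and 1633 with GA101 and 1051, 1152 and 1076 with rituximab. The GA101 arrays lay above all others of that line, also above the combination arrays at 1138, 1168 and 1131; the change was 0.48 ± 0.045 over isotype (1.39-fold; adjusted p = 3.7e-12) and 0.49 over rituximab (adjusted p = 7e-12).

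In HBL-2 HERPUD1 rose in the other order, with isotype at 2375, 2361 and 2433, GA101 at 2694, 2700.3 and 2764.5, rituximab at 3058, 3019.6 and 2889.7 and the combination at 3199, 3211 and 3013. All 3 treatments passed against isotype (0.19, 0.32 and 0.39). The PBS arrays of HBL-2, however, were 2912, 2877 and 2657, above the isotype arrays (isotype against PBS -0.235), and against PBS GA101 was -0.049 (adjusted p = 0.72) and rituximab 0.087 (adjusted p = 0.31). JEKO-1 fell, from 3421, 3301 and 3488 with isotype to 2512, 2595 and 2611 with GA101 (-0.40 ± 0.045; adjusted p = 7.8e-10); the PBS arrays, at 2992, 3022 and 2857, lay between, and the change against them was -0.20 (adjusted p = 0.0038), with isotype above PBS by 0.20. Over the lines HERPUD1 was 0.026 for GA101 (adjusted p = 0.43). EDEM1 and SEL1L, of the same degradation pathway, passed in no comparison over the lines and in no line.

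**Figure D3:**
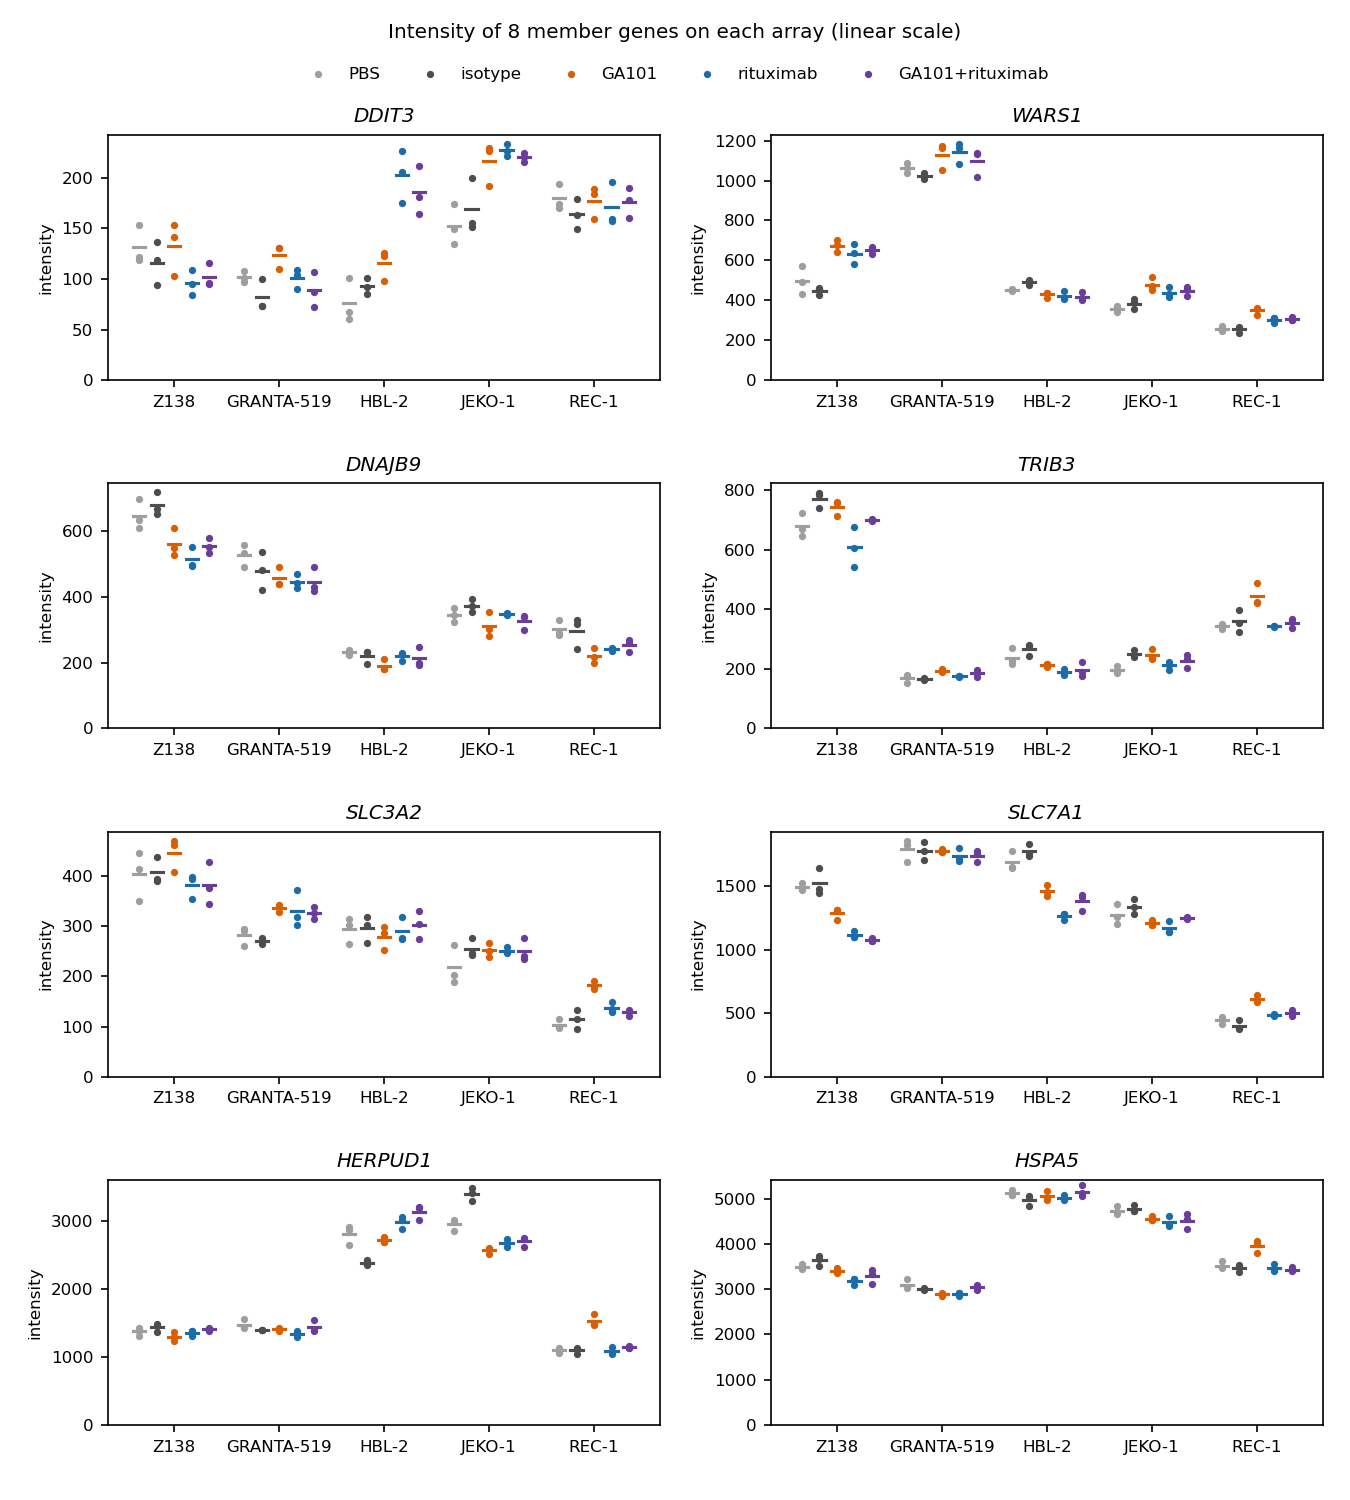
Intensity on each array (points, linear y axis from 0) and the group mean (bars) of 8 members in the 5 lines, coloured by treatment, 3 arrays a group. Among the arrays of HBL-2, DDIT3 is highest with rituximab and the combination, and within JEKO-1 all 3 treatments lie above PBS. Among the arrays of REC-1, SLC3A2, SLC7A1, HERPUD1 and HSPA5 are highest with GA101.

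Within the lines and against isotype, REC-1 had the most members higher with GA101 and HBL-2 the most members changed with rituximab. GA101 against isotype gave 28 calls among the 195 pairs of a member and a line, 19 higher and 9 lower; of all pairs 4.78% were higher and 2.82% lower. In REC-1 9 members were higher (SLC3A2, SLC7A1, HERPUD1, WARS1, ASNS, TRIB3, CEBPB, CEBPG, HSPA5) and 1 lower, against 4.52% and 7.14% of all genes. The other lines had 4 and 4 in Z138 (8.57% and 1.86% of all genes), 1 and 0 in GRANTA-519 (2.47% and 0.576%), 1 and 3 in HBL-2 (2.94% and 2.77%) and 4 and 1 in JEKO-1 (5.42% and 1.75%). Against PBS, REC-1 had 9 higher and 1 lower with GA101, and JEKO-1 was close to it with 8 and 1. Those higher in JEKO-1 were DDIT3, TRIB3, ASNS, WARS1, XBP1, CALR, PDIA4 and SDF2L1. Z138 had 1 and 2, GRANTA-519 0 and 0, and HBL-2 2 and 3. The shares of all genes against PBS were not counted by line, so these counts cannot be set beside the array as a whole. Of the 28 calls, 16 held in all 75 fits that each left out 1 array. Among the REC-1 calls, CEBPB (0.22) ended without GA101 replicate 1 (0.19) or 3 (0.13) or isotype replicate 1 (0.084) or 3 (0.19), and CEBPG (0.20) without GA101 replicate 1 (0.17) or 3 (0.083) or isotype replicate 1 (0.14) or 3 (0.066). Averaging the probe sets of each gene ended the REC-1 calls of SLC7A1 (adjusted p = 0.41), TRIB3 (0.38), CEBPG (0.99), HSPA5 (0.68) and CEBPB (0.062). It did not end those of SLC3A2, HERPUD1, WARS1 and ASNS.

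Rituximab against isotype gave 31 calls, 15 higher and 16 lower, against 5.11% and 2.73% of all pairs, and 17 of them held in all 75 fits. HBL-2 had 5 higher (DDIT3, ERN1, MANF, HERPUD1, CALR) and 8 lower (CTH, ATF5, TRIB3, SLC7A1, MTHFD2, WARS1, CEBPG, ASNS), against 6.28% and 3.51% of all genes. Against PBS, ERN1 (adjusted p = 0.13), MANF (0.08), HERPUD1 (0.31), CTH (0.12), WARS1 (0.52) and ASNS (0.08) no longer passed in HBL-2. Averaging the probe sets of each gene ended the HBL-2 calls of ATF5 (adjusted p = 0.74), CTH (0.14), WARS1 (0.061), SLC7A1 (0.86), ERN1 (0.30) and CALR (0.067). The other HBL-2 calls did not end that way. Z138 had 4 and 6 (8.36% and 4.21%), GRANTA-519 2 and 0 (3.29% and 0.908%), JEKO-1 1 and 2 (4.5% and 2.98%), and REC-1 3 and 0 (3.11% and 2.06%), the last being SLC7A1, WARS1 and ASNS. In REC-1 averaging ended the rituximab calls of SLC7A1 (adjusted p = 0.99) and WARS1 (0.13) and not that of ASNS. Against PBS SLC7A1 no longer passed there with rituximab (0.23). The combination gave 12 higher and 12 lower, against 4.06% and 2.38% of all pairs, and 14 held in all fits. In REC-1 it raised ASNS, WARS1 and SLC7A1, and in HBL-2 DDIT3, MANF and HERPUD1. Averaging ended the REC-1 combination calls of WARS1 (0.136, adjusted p = 0.55) and SLC7A1 (0.051) and none of the other 4. Against PBS SLC7A1 missed the threshold there (adjusted p = 0.055). Neither SLC3A2 nor HERPUD1 passed with the combination in REC-1. The combination was not tested against the single antibodies here.

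GA101 and rituximab differed directly in few members. Over the lines GA101 was above rituximab for 5 (TRIB3, SLC7A1, CEBPG, ASNS and HSPA5) and below for 0, beside 1.23% and 1% of all genes; the median difference was 0.042 for the members and 0.001 for all genes. The ASNS difference (0.075; adjusted p = 0.042) was lost in 22 of the 75 fits without 1 array. Under quantile normalization 8 members were higher and 0 lower, beside 162 and 154 of all 13879 genes. When each gene's probe sets were averaged 1 member was called. Within lines there were 9 higher and 4 lower, beside 0.635% and 0.807% of all pairs. Of the higher, 6 were in REC-1 (HERPUD1, SLC3A2, TRIB3, SLC7A1, CEBPG, HSPA5), 2 in Z138 and 1 in HBL-2. HBL-2 had 3 of the lower, DDIT3, MANF and CALR. Of these 13 calls, 4 held in all 75 fits: DDIT3 in HBL-2 and SLC7A1, HSPA5 and HERPUD1 in REC-1. Averaging the probe sets ended the REC-1 calls of SLC7A1 (adjusted p = 0.65), TRIB3 (0.65), CEBPG (0.62) and HSPA5 (0.15). It did not end those of HERPUD1 and SLC3A2. The share of all genes was not counted by line for this comparison, so the place of the calls cannot be set beside the array as a whole.

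**Figure D4:**
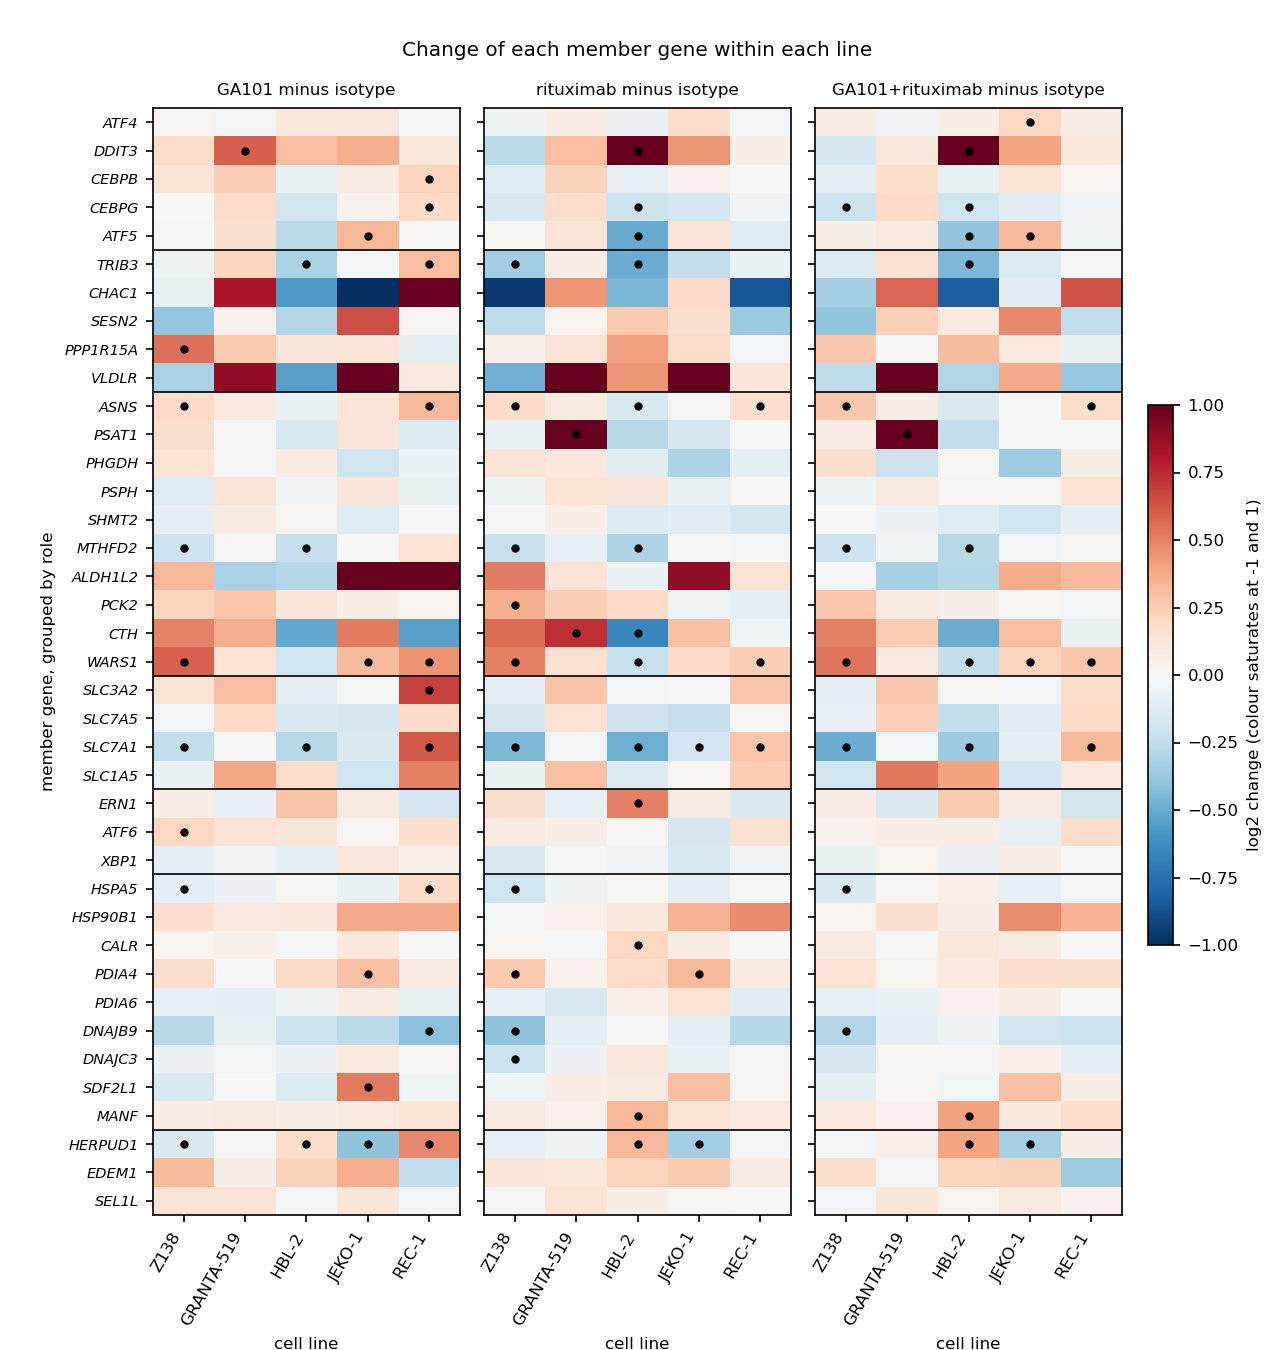
Log2 change of each member (rows, grouped by role) in each line (columns) for GA101, rituximab and the combination against isotype; red is higher, blue lower, and a dot marks an adjusted p below 0.05. For GA101 the REC-1 column has 9 of the 19 red dots, and for rituximab the HBL-2 column has the DDIT3 dot at 1.12 and 8 of the 16 blue dots; strong colours without dots are dim probe sets such as CHAC1, VLDLR and ALDH1L2.

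Across the lines, 12 members responded differently to GA101 and 14 to rituximab by the F test, beside 14.1% and 11.5% of all genes. The smallest adjusted p for GA101 were those of HERPUD1, SLC7A1, WARS1, HSPA5 (1.1e-05) and TRIB3 (0.00027), and for rituximab SLC7A1 (2.2e-12), HERPUD1, WARS1, DDIT3 and ATF5 (0.00026). The GA101 changes of REC-1 and HBL-2 were then compared directly, a comparison chosen after the values were seen. They differed for 9 members, beside 6.58% of all genes: SLC7A1 (by 0.89 ± 0.074; adjusted p = 1.8e-13), SLC3A2 (0.77), WARS1 (0.65), TRIB3 (0.63), ASNS (0.39), CEBPG (0.38), MTHFD2 (0.38), HERPUD1 (0.29) and HSPA5 (0.17), each higher in REC-1.

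Other genes of the same pathways were read from lists that held no member. Of 28 further ATF4 pathway genes tested, 10 were higher and 1 lower with GA101 against isotype, 8 and 1 with rituximab and 10 and 1 with the combination, with medians of 0.052, 0.034 and 0.044. Of all genes 12.5% and 5.77%, 13.8% and 6.9%, and 11.4% and 6.01% were higher and lower. Against PBS the counts were 6 and 1, 5 and 2, and 4 and 0, beside 7.26% and 3.31%, 8.26% and 3.85%, and 5.69% and 2.84% of all genes. The largest rises with GA101 were DDIT4 (REDD1, an mTORC1 inhibitor; 0.36 ± 0.080, adjusted p = 0.00049), GOT1 (aspartate aminotransferase; 0.30, adjusted p = 1.4e-06) and AARS1 (alanyl-tRNA synthetase; 0.30, adjusted p = 1.8e-09). The fall was EIF2AK3, which encodes PERK (-0.20; adjusted p = 0.0023). Isotype itself was below PBS for DDIT4 (-0.40; adjusted p = 0.00037) and AARS1 (-0.15; adjusted p = 0.0026), and against PBS GA101 gave 0.14 for AARS1 (adjusted p = 0.0035) and 0.23 for GOT1 (adjusted p = 0.00056), while DDIT4 was -0.038 (adjusted p = 0.85). Of 27 further unfolded protein response genes, 3 were higher and 1 lower with GA101, among them MBTPS2, the protease that cleaves ATF6 (0.21; adjusted p = 3.6e-06; against PBS 0.16, adjusted p = 0.0014), and DERL1, a channel component of ER-associated degradation (-0.11; adjusted p = 0.019). Rituximab gave 3 higher, MBTPS2, EDEM2 and TXNDC11, and 1 lower, DERL1. These counts are near or below the shares of all genes, and against PBS they were 1 and 0 for GA101 and 2 and 0 for rituximab.

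Second probe sets bore on how far the calls go. The 39 tested members had 38 other probe sets past the filter, on 22 genes, and 28 of the 38 had the sign of the tested one for GA101 against isotype, 28 for rituximab, 29 for the combination and 23 for GA101 against rituximab. SHMT2 had a dimmer probe set that fell with GA101 (-0.11; adjusted p = 0.0051 over probe sets) where the tested one gave -0.023. Plasma cell markers, genes that the XBP1 arm accompanies in B cell differentiation, passed with GA101 for 1 of 6, JCHAIN (-0.14; adjusted p = 0.02), and their summed level was 1717 to 11410 on isotype arrays and 1694 to 10300 on GA101 arrays. With rituximab 3 of 6 were lower, PRDM1 (-0.24), JCHAIN (-0.14) and IRF4 (-0.10), beside 6.9% of all genes and a summed level of 1764 to 10870. Against PBS, PRDM1 and JCHAIN were lower with rituximab, JCHAIN with GA101 and 0 of 6 with the combination. Their part in the falls of DNAJB9 and HSPA5 was not tested.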

How the data were processed

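RNA of 75 samples of 5 lymphoma lines was measured on Affymetrix arrays, and the authors deposited 1 linear intensity for each of 54675 probe sets, made with MAS5 per the submitters' processing notes, with settings and a version not given in the sources used here. MAS5 subtracts mismatch signal and sets arrays to a common mean, so dim probe sets are noisy and a shift common to all genes cannot be seen. Probe sets were named from GEO's platform annotation: 41091 had 1 symbol, 1801 several and 11721 none. Intensities were floored at 1 and log2 transformed, and the brightest probe set stood for a gene. Probe sets were kept if their mean log2 value in at least 1 line exceeded the median over all probe sets, 3.548.

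One linear model over 25 group means of all 75 arrays was fitted in limma 3.58.1 (R 4.3.3) with a mean-dependent prior, and p-values were adjusted by Benjamini-Hochberg over 13879 genes, with 0.05 as the threshold. Changes over the lines weight each line equally; moderated F tests asked whether lines differ. The script was tested on simulated data. Replicate numbers were not used to pair arrays in the main model. Same-numbered deviations correlated at -0.081 to 0.12 (mean 0.028), with 1 of 150 pairs above 0.1. A correlation over all genes does not exclude a shared replicate effect in single genes. HSP90B1 had its highest isotype array at replicate 3 in every line. Counts with the replicate number as a block are given at the end. Any of the 40 members may be named. ATF4, DDIT3, ASNS, TRIB3, CHAC1, PPP1R15A, HSPA5, XBP1 and DNAJB9 are always described. Added are up to 5 members that passed with the largest rise and 5 with the largest fall over the lines, up to 3 each within a line whose arrays do not overlap, the 5 with the smallest F test p, and up to 3 genes a direction of the other lists. The members and lists were chosen with earlier results of these data known. Alternatives were quantile normalization, a floor of 16, no filter, averaging the probe sets of each gene, array weights, a replicate block and leaving out each array, and PBS in place of isotype as the control.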

Additional observations from a re-analysis of the deposited data

Results flagged for a closer look

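The response to GA101 against isotype differed between the 5 lines, by a moderated F test in limma, for 12 members. The adjusted p-values were CEBPG (0.0087), ATF5 (0.0029), TRIB3 (0.00027), ASNS (0.00039), MTHFD2 (0.0029), CTH (0.004), WARS1 (2.5e-08), SLC3A2 (0.00027), SLC7A1 (1.3e-14), HSPA5 (1.1e-05), SDF2L1 (0.016) and HERPUD1 (1.2e-15). The response to rituximab against isotype differed for 14 members, with adjusted p-values of DDIT3 (4.1e-05), CEBPG (0.0062), ATF5 (0.00026), TRIB3 (0.0017), ASNS (0.00043), PSAT1 (0.023), MTHFD2 (0.025), CTH (0.0037), WARS1 (1.8e-06), SLC7A1 (2.2e-12), ERN1 (0.039), HSPA5 (0.0028), PDIA6 (0.024) and HERPUD1 (1.7e-10). PSAT1 had calls within GRANTA-519, where its intensities were 0 to 8.05. These tests say that the lines differ and not which line does.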

How the results depend on the processing

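Of 68 calls named over the lines and 96 within a line, 59 and 81 were the same under quantile normalization, 62 and 87 with no filter, 68 and 93 with a floor of 16, 66 and 92 with array weights, and 45 and 46 when each gene's probe sets were averaged. All 75 fits without 1 array kept 58 and 51. With PBS as the control, chosen after seeing the data like the comparison of REC-1 with HBL-2, the within-line calls against isotype came to 50 that were the same, 28 that no longer passed and 5 that turned: HERPUD1 in HBL-2 (-0.049) and ATF5 in JEKO-1 (-0.006) with GA101, PCK2 in Z138 with rituximab (-0.056), and ATF4 (-0.021) and ATF5 (-0.011) in JEKO-1 with the combination. Averaging probe sets turned ATF5 in JEKO-1 with GA101 (-0.254) and in HBL-2 with the combination (0.167), and SLC7A1 in HBL-2 for GA101 against rituximab (-0.133). It lowered the members called over the lines from 5 to 1 for GA101 against rituximab, from 2 to 1 for isotype against PBS and from 9 to 5 for the combination against PBS. Pairs fell from 28 to 15 with GA101, 24 to 12 with the combination and 13 to 4 for GA101 against rituximab, and members whose response differed between lines from 12 to 6 and 14 to 7. It gives dim probe sets equal weight; whether that is the cause was not tested. Quantile normalization raised the members called for GA101 against rituximab from 5 to 8. With the replicate number as a block, 11 members were called over the lines for GA101, 14 for rituximab and 13 for the combination against isotype. Of all 13879 genes 2990, 3256 and 2834 were called, in the same order. Under the block 3 named calls were lost. They were ATF6 for the combination against PBS (adjusted p = 0.059), ATF6 in Z138 with GA101 (0.055) and PSAT1 in GRANTA-519 for GA101 against rituximab (0.07). The precision is limited by 3 arrays a group, by low signal of NUPR1, and by low signal of CHAC1, VLDLR and ALDH1L2 outside the line where each was highest.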
